A study of Mus musculus with 9 samples.

Results

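The interleukin-1 (IL-1) family genes described here are Il1a, Il1b, Il1rn, Il1r1, Il1r2, Il1rap, Il18 and Il18bp: 8 genes chosen by symbol as ligands, receptors and inhibitors of one cytokine family, of 22173 genes in the count files. All 8 passed the filter on low counts, which kept 12094 genes. Wild type mouse bone marrow-derived neutrophils, used as primary cells, were held for 2 days in gelatin methacryloyl (GelMA) hydrogel, a light-cured gelatin whose stiffness can be set, with RPMI 1640 medium and 10% fetal bovine serum. The 3 groups were gels of low (1.5 kPa), middle (2.6 kPa) and high (5.7 kPa) elastic modulus, the low gel being the study's control, with 3 poly(A) RNA-seq libraries each. The replicates carry the numbers 1 to 3, but the labels do not say whether a number marks a mouse, a culture or a day. The p-values below therefore measure only how far these libraries scatter, and that scatter may be technical. Mouse age and sex and the purity of the neutrophils are not given in the labels.

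IL-1α and IL-1β, the products of Il1a and Il1b, are agonist ligands that bind the signalling receptor IL-1R1, after which the accessory chain IL-1RAP joins and MyD88 and IRAK kinases carry the signal to NF-kB. Il1rn encodes the receptor antagonist, which occupies IL-1R1 without signalling, and Il1r2 encodes a decoy receptor that binds IL-1 but has no signalling domain. IL-18, the product of Il18, is a related ligand neutralised by the soluble binding protein encoded by Il18bp. Neutrophils are known sources of IL-1β and of the antagonist, and they carry the decoy receptor. Transcript counts do not show how much active cytokine was made, since IL-1β and IL-18 must be cleaved before they act.

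Il1a and Il1b were the 2 members whose level was in the order low, middle, high inside every replicate number, so the RefSeq sequence around their transcription starts is shown. Both genes lie on mouse chromosome 2, on the minus strand, with starts 61.2 kb apart. The windows run from 250 bases before the start to 50 after it, in build GRCm38.p6, at chr2:129309923-129310222 for Il1a and chr2:129371090-129371389 for Il1b. Capitals mark TATAAA, the core of a TATA box, and TGANTCA, the letters bound by AP-1 factors.
Il1a: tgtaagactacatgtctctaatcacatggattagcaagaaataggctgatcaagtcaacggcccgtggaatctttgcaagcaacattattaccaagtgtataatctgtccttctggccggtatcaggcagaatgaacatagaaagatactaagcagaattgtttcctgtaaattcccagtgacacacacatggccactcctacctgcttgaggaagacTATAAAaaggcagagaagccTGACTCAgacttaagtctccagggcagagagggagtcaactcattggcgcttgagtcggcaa
Il1b: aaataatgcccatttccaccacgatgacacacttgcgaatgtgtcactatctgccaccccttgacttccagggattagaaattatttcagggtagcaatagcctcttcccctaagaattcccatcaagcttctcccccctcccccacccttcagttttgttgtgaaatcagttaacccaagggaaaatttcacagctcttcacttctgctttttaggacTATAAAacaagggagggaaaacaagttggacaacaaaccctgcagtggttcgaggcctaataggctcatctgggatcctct
The TATAAA began 32 bases before the start in Il1a and 31 bases before it in Il1b. On the gene's strand at 20 to 40 bases before the start, TATAAA was in 1.99% of 32851 mouse windows of this length. On either strand anywhere in the window it was in 13.6% of them, and no match overlapped that of another motif. On the opposite strand TATAAA was also in the Il1rn window at chr2:24345121-24345420 and in the Il18 window, 175 to 170 bases before that start. The Il1a window also held TGACTCA at 12 to 6 bases before the start, a pattern found in 7.81% of windows. The Il1rn window at chr2:24336610-24336909 held a TGAGTCA, 141 to 135 bases before that start. TTGCNNAA, letters bound by C/EBP factors (10.8% of windows), was in 1 of the 2 Il1r1 windows and in the Il18bp window. A 10-base NF-kB consensus (5.8% of windows), searched on both strands like the other letters, was in none of the 11 windows of the 8 members. The windows cover only part of what can act on a gene, and a match describes letters, not binding.

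Library totals were 13172879 to 19486546 counts, and 14042 to 14914 genes had a count. The 3 libraries numbered 1 stood apart from the other 6 in every gel, and this separation touches almost all the values that follow. Summed levels of 12 neutrophil markers were 3195 to 3741 CPM (counts scaled to library size with TMM factors) in replicate 1 and 13736 to 23354 CPM in replicates 2 and 3. The 13 monocyte and macrophage markers summed to 7441 to 8723 CPM in replicate 1 and 5559 to 8314 CPM in replicates 2 and 3. By gel the neutrophil sums were 3195 to 23354 CPM in low, 3741 to 19903 CPM in middle and 3720 to 13779 CPM in high gels. The monocyte and macrophage sums were 8216 to 8723 CPM in low, 6491 to 7441 CPM in middle and 5559 to 7855 CPM in high gels. B cell markers summed to 31.6 to 206 CPM and T and NK cell markers to at most 6.88 CPM, with no marker of any list at 0 in all libraries. The cells therefore carried neutrophil markers as labelled, together with macrophage genes such as Csf1r and Gpnmb. The part of these marker shifts in the results for the 8 genes was not tested, and in bulk RNA fewer cells of a type and less RNA per cell cannot be told apart.

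Il1b and Il1rn were among the most abundant transcripts in these cells. Per kilobase of the deposited exonic size, Il1b averaged 1509 CPM per kb over the 9 libraries and Il1rn 442 CPM per kb, which put them at ranks 18 and 85 of 22173 genes. Il1a followed at 38.9, Il1r2 at 25.5, Il18bp at 8.92, Il18 at 3.70, Il1rap at 3.59 and Il1r1 at 0.801 CPM per kb. On this per-kilobase scale Il1b was first, Il1rn second and Il1r1 last in each of the 9 libraries. The ranges of Il1b (607 to 2838 CPM per kb) and Il1rn (318 to 580 CPM per kb) did not overlap, nor did that of Il1r1 (0.388 to 1.35 CPM per kb) with any other. The neighbours in between did overlap: Il1a (13.8 to 76.9) with Il1r2 (5.89 to 47.2), Il1r2 with Il18bp (4.77 to 14.0), Il18bp with Il18 (1.59 to 5.88) and Il18 with Il1rap (2.88 to 4.68 CPM per kb). The transcripts of the ligand gene Il1b and the antagonist gene Il1rn were thus abundant in the same RNA in which that of the signalling receptor was the scarcest of the 8.

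**Figure D1:**
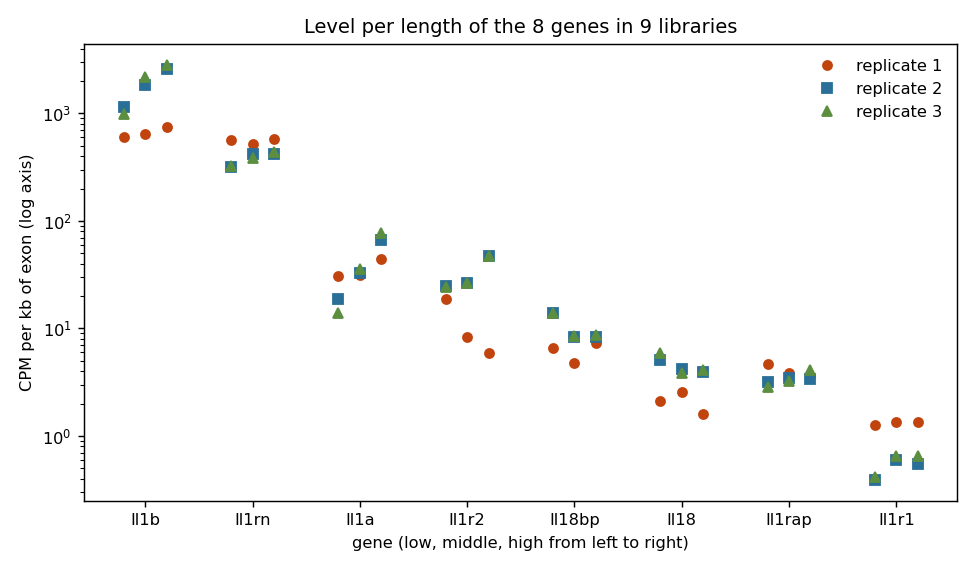
Level of each of the 8 genes in each library, in CPM per kilobase of exon on a log axis, with genes ordered by their mean and the low, middle and high gels side by side for each gene. Il1b and Il1rn lie above 300 CPM per kb in all 9 libraries and Il1r1 below 1.4 CPM per kb, and the circles of replicate 1 lie apart from the other symbols for most genes.

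Il1a, which encodes the ligand IL-1α, had its highest levels in the stiffest gel in every replicate number. It was at 60.5, 36.8 and 27.2 CPM in low gels (replicates 1, 2 and 3), at 61.6, 64.3 and 70.5 CPM in middle gels, and at 86.7, 131 and 152 CPM in high gels. The 3 groups did not overlap: each high library was above each middle one, and each middle library above each low one. Il1a was the only 1 of the 8 genes with that property, against 5.9% of all tested genes for high above low, 3.56% for middle above low and 2.54% for high above middle. The group means were 41.5 ± 17.2 CPM in low, 65.4 ± 4.53 CPM in middle and 123 ± 33.2 CPM in high gels (SD, n = 3 each).

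On the log2 scale the Il1a difference of high against low was 1.57 ± 0.31 (SE) in edgeR's quasi-likelihood test, with an adjusted p of 0.181 (Benjamini-Hochberg over 12094 genes). With the replicate number as a block it was 1.59 ± 0.38, with an adjusted p of 0.0547. DESeq2 gave an adjusted p of 3.89e-04 without the block. The call therefore turned on the tool, and within the blocked edgeR fit also on single libraries: the adjusted p was 4.49e-05 without low replicate 1 and 0.0196 without high replicate 1. Over the 12 blocked fits that left out a library or a replicate number it ranged from 2.35e-07 to 0.298. Without low replicate 1, middle against low (1.17, adjusted p = 0.00463) and high against middle (0.88, adjusted p = 0.0157) passed as well.

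Il1b, which encodes the ligand IL-1β, rose in high against low gels when the replicate number was a block, and its level was also split by replicate number. It was at 1146, 2147 and 1884 CPM in low gels, at 1220, 3440 and 4127 CPM in middle gels, and at 1397, 4921 and 5358 CPM in high gels. Replicate 1 was the lowest of its group in all 3 gels, so the groups overlapped, although inside each number the order was low, middle, high. Together with Il1a this made 2 of 8 genes with that order in all 3 numbers, against 5.11% of tested genes.

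Without the block the Il1b difference of high against low was 1.17 ± 0.59, with an adjusted p of 0.738. With the block it was 0.98 ± 0.21, with an adjusted p of 0.0190, a fold of 1.97, and the direction was the same in 3 of 3 numbers. The blocked call was lost without low replicate 2 (adjusted p = 0.0952), high replicate 2 (0.108) or high replicate 3 (0.0704), and over the 12 such fits the adjusted p ranged from 1.45e-07 to 0.221. Middle against low gave 0.61 ± 0.21 with the block and an adjusted p of 0.240, and 0.95 without low replicate 1 (adjusted p = 0.000462).

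**Figure D2:**
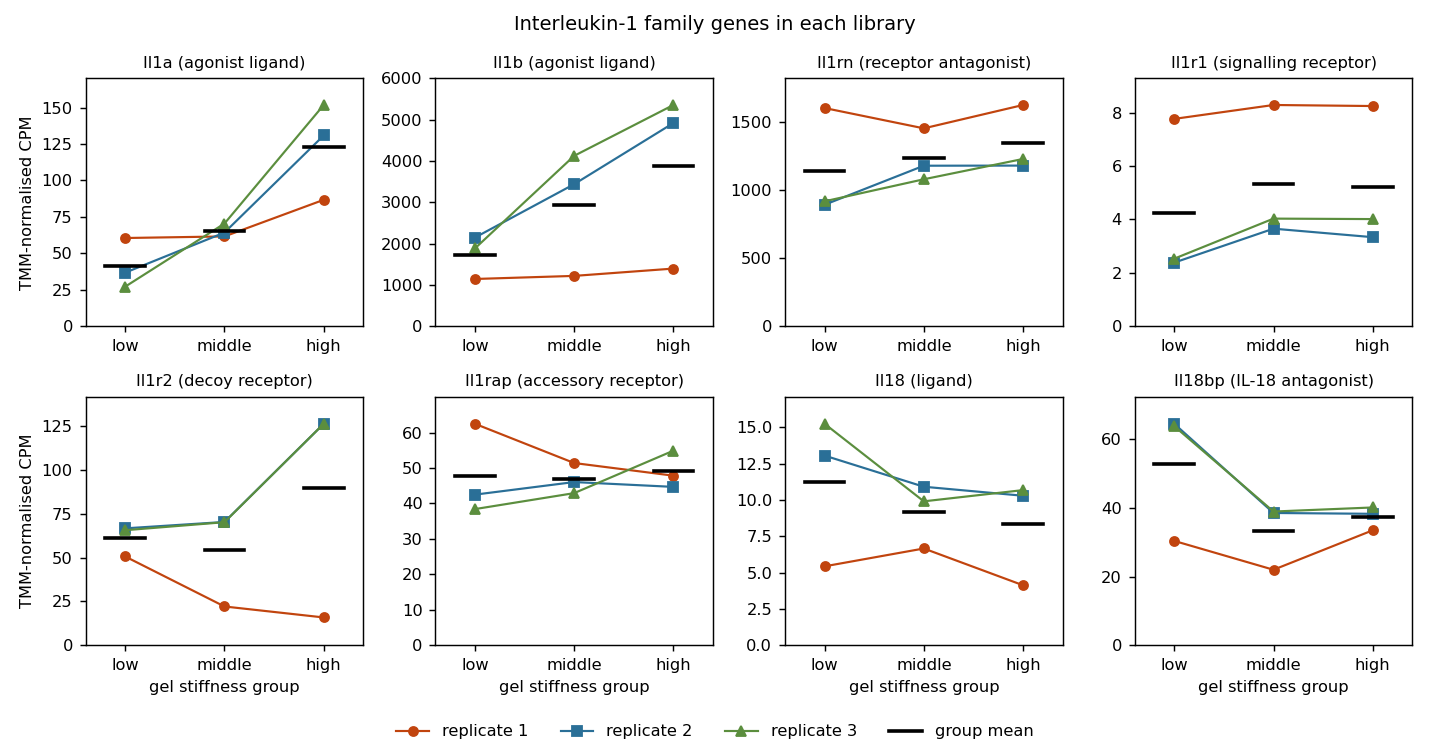
TMM-normalised CPM of each gene against the gel group, 1 panel per gene, with a line for each replicate number and a black bar for the group mean. Il1a and Il1b climb from low to high gels in all 3 numbers, and in the Il1r2 panel replicate 1 runs downward while replicates 2 and 3 run upward.

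The antagonist gene Il1rn had a narrow range beside its ligands. Its levels were 1604, 893 and 918 CPM in low gels, 1455, 1180 and 1080 CPM in middle gels and 1626, 1181 and 1230 CPM in high gels. Replicate 1 was the highest in each gel, the opposite of Il1b, and the groups overlapped. High against low gave 0.28 ± 0.11 on the log2 scale with the block (adjusted p = 0.119), and 0.42 without low replicate 1 (adjusted p = 0.00495).

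The ligand to antagonist ratios, which do not depend on library size, were computed per kilobase. The Il1a to Il1rn ratio was 0.0537, 0.0586 and 0.0421 in low gels, 0.0602, 0.0774 and 0.0927 in middle gels and 0.0758, 0.157 and 0.175 in high gels. Antagonist transcript thus exceeded Il1a transcript in each of the 9 libraries. The log2 ratio averaged -2.97 ± 0.66 in high and -4.29 ± 0.25 in low gels (SD, n = 3 each), a difference of 1.33 with p = 0.00595 in a two-sided exact permutation test of the gel labels and 0.0238 after adjustment over 4 ratios. When gels were permuted only inside replicate numbers the exact p was 0.00926 and 0.0185 after adjustment. High was above low in each pair of libraries. Leaving out replicate 2 (adjusted p = 0.267) or replicate 3 (0.178) lost the call of the first permutation test, where the smallest possible p was 0.0222 before adjustment. That call was also lost without any 1 of the low libraries, middle replicate 2, high replicate 2 or high replicate 3. In those 6 cases the adjusted p was 0.0571 to 0.143, while the difference stayed between 1.10 and 1.43. Without middle replicate 2 the smallest possible p was 0.00357 before adjustment.

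The Il1b to Il1rn ratio separated the replicate numbers. In replicate 1 it was 1.06, 1.25 and 1.28 in low, middle and high gels. In replicate 2 it was 3.57, 4.33 and 6.19, and in replicate 3 it was 3.05, 5.67 and 6.47. Per kilobase, Il1b transcript exceeded that of its antagonist in all 9 libraries, by little in replicate 1. Before division by gene size the replicate 1 ratios of counts were 0.714, 0.839 and 0.859, so Il1rn had more counts there. The difference of high against low was 0.72 on the log2 scale, with an exact permutation p of 0.426 (adjusted 0.852). When gels were permuted only inside replicate numbers the exact p was 0.00926, the smallest that such arrangements can give, and 0.0185 after adjustment.

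**Figure D3:**
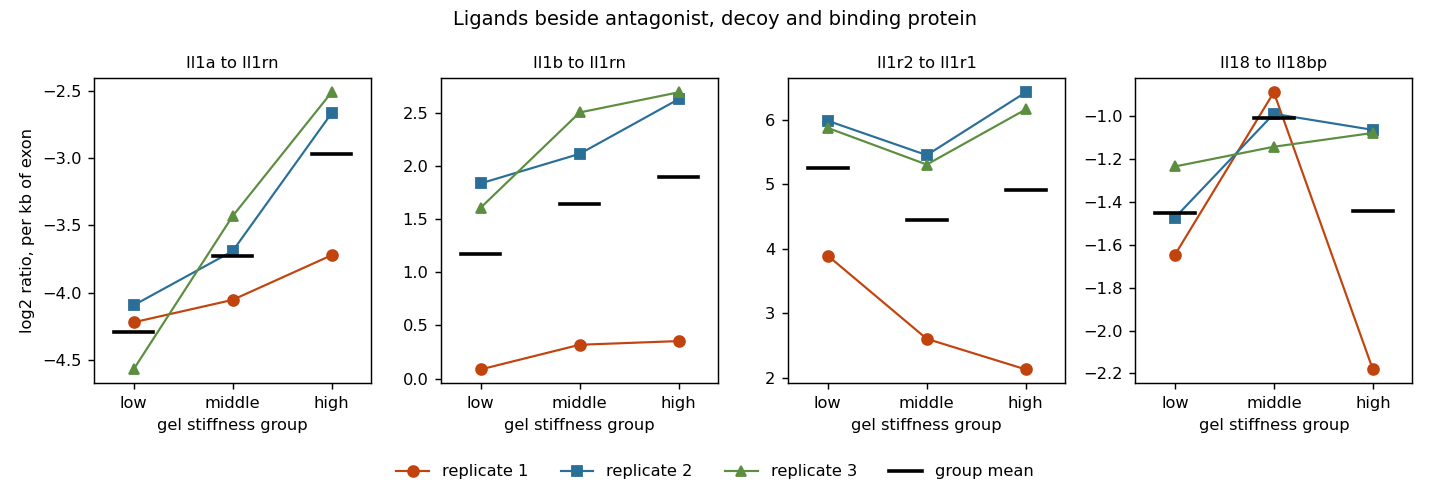
Log2 ratio of transcript per kilobase for each ligand to its inhibitor and for decoy to signalling receptor, against the gel group, with a line per replicate number and a black bar for the group mean. The Il1a to Il1rn ratio is higher in high than in low gels in every library pair, and the Il1r2 to Il1r1 ratio of replicate 1 lies below the others in each gel.

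Among the receptors, the decoy gene Il1r2 differed with stiffness in opposite directions in different replicate numbers. It was at 50.6, 66.7 and 65.6 CPM in low gels, at 22.0, 70.3 and 70.2 CPM in middle gels and at 15.8, 126 and 126 CPM in high gels. High minus low was -1.68 in replicate 1, 0.92 in replicate 2 and 0.95 in replicate 3 on the log2 scale. Over all libraries these values came to 0.17 ± 0.55 with the block (adjusted p = 0.868) and 0.55 ± 0.70 without it (adjusted p = 0.978).

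The signalling receptor gene Il1r1 was low throughout, at 42 to 116 counts per library. It was at 7.77, 2.38 and 2.53 CPM in low gels, at 8.29, 3.66 and 4.03 CPM in middle gels and at 8.25, 3.34 and 4.01 CPM in high gels. Replicate 1 exceeded all other libraries, and high against low was 0.38 ± 0.20 with the block (adjusted p = 0.235). The accessory chain gene Il1rap had the estimate closest to 0, with means of 47.8 ± 12.9 CPM in low, 46.8 ± 4.30 CPM in middle and 49.1 ± 5.23 CPM in high gels (SD, n = 3 each). Its high against low difference was 0.07 ± 0.14 with the block (adjusted p = 0.788, interval -0.21 to 0.34).

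Decoy transcript exceeded signalling receptor transcript per kilobase in every library, but by very different amounts. The Il1r2 to Il1r1 ratio was 14.9, 6.08 and 4.38 in low, middle and high gels of replicate 1. It was 63.4, 43.8 and 86.1 in replicate 2, and 58.7, 39.6 and 71.6 in replicate 3. High against low differed by -0.35 on the log2 scale (exact permutation p = 0.819, adjusted 0.980), and without high replicate 1 the sign turned to 1.04.

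On the IL-18 side, the binding protein gene Il18bp had lower means in the middle and high gels than in the low gel. It was at 30.4, 64.5 and 63.8 CPM in low gels, at 22.0, 38.5 and 39.0 CPM in middle gels and at 33.5, 38.3 and 40.1 CPM in high gels. Replicates 2 and 3 were highest in the low gel, while replicate 1 was not. With the block, middle against low was -0.66 ± 0.15 (adjusted p = 0.0631) and high against low was -0.44 ± 0.15 (adjusted p = 0.0765). High against low passed without low replicate 1 (-0.62, adjusted p = 0.00272) or high replicate 1 (-0.68, adjusted p = 0.00132). Middle against low passed without the same libraries, at -0.82 without low replicate 1 (adjusted p = 0.00126) and -0.65 without high replicate 1 (0.00298). The blocked F test among the 3 gels gave an adjusted p of 0.0460 (9% of all tested genes were called), which changed to 0.0877 to 0.272 without any 1 of low replicates 2 or 3, high replicates 2 or 3 or a middle replicate. The ligand gene Il18 was at 5.43, 13.1 and 15.3 CPM in low gels, at 6.66, 10.9 and 9.91 CPM in middle gels and at 4.12, 10.3 and 10.7 CPM in high gels. High minus low was -0.39, -0.34 and -0.51 in replicates 1, 2 and 3, and the blocked estimate was -0.42 ± 0.18 (adjusted p = 0.138). The Il18 to Il18bp ratio per kilobase was 0.319, 0.360 and 0.425 in low gels, 0.541, 0.504 and 0.453 in middle gels and 0.221, 0.479 and 0.474 in high gels. Each middle library was above each low one, a difference that was not tested, while high replicate 1 was the lowest of all 9 libraries. High against low differed by 0.011 on the log2 scale (exact permutation p = 0.980).

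Counted over the family, edgeR without the block called 0 of 8 genes in each of the 3 gel comparisons, against 0.091% of all tested genes for high against low and 0% for the other 2. At an unadjusted p under 0.05 there were 0 genes for middle against low, 1 for high against low and 1 for high against middle, Il1a in both cases. Of the 12094 tested genes, 318, 934 and 179 were under that value in the same comparisons. DESeq2 called 0, 1 and 0 of the 8, where it called 48, 333 and 2 of all tested genes. With the block, 1 of 8 genes was called higher for high against low, beside 6.72% of tested genes called higher and 8.73% called lower. That count was 0 without low replicate 2, high replicate 2 or high replicate 3, while 3 genes were called higher and 1 lower without low replicate 1, and 2 higher and 1 lower without high replicate 1. Over the whole table the block called 1869 genes, and these fits called 1024, 602, 948, 2456 and 2280 genes in that order. For middle against low the block called 0 of 8, with 1.84% of all genes called. At an unadjusted p under 0.05 there were 2 of the 8, beside 1768 of all tested genes. DESeq2 with the block called Il1b higher and Il18bp lower, where it called 462 of all tested genes. For high against middle the block called 0 of 8, with 0.0165% of all genes called, and DESeq2 with the block also called 0. At an unadjusted p under 0.05 the block had 0 of the 8, beside 1272 of all tested genes. The median log2 difference of the 8 genes for high against low was 0.23 with the block, and 6 of 8 were above 0, beside a median of -0.003 over all tested genes.

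**Figure D4:**
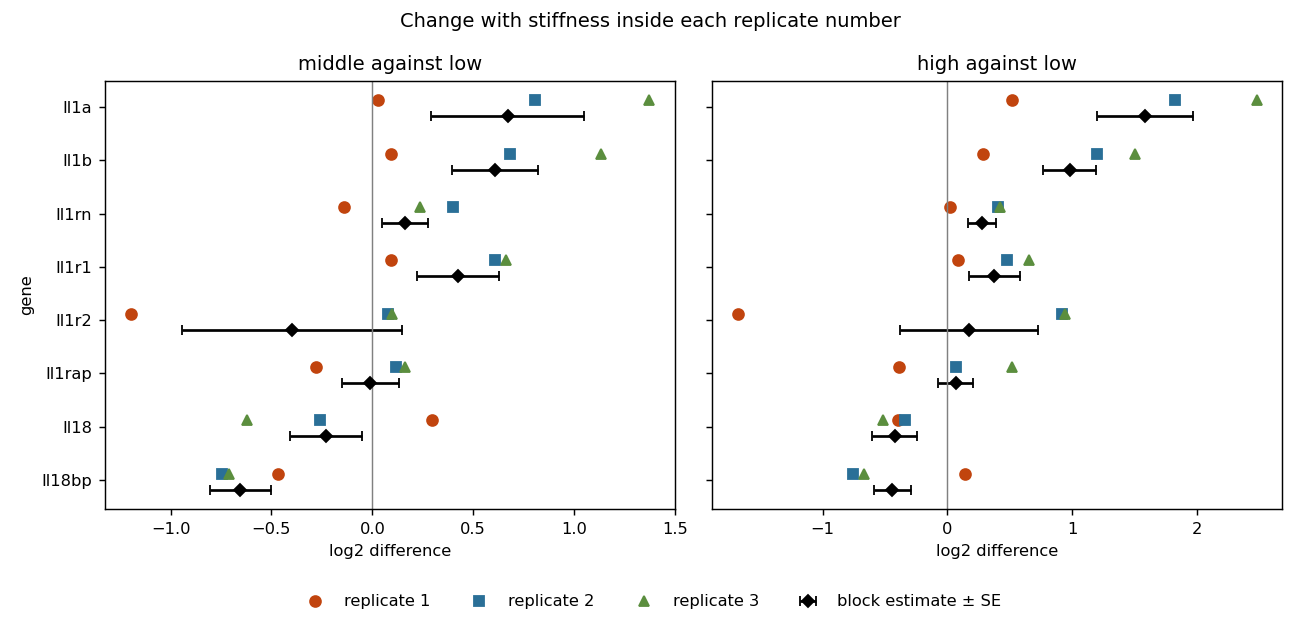
Log2 difference of middle against low (left) and high against low (right) for each gene inside each replicate number, with the edgeR estimate of the replicate block fit and its standard error as a black diamond and bar. For high against low, Il1a and Il1b lie right of 0 in all 3 numbers and Il18 left of 0, while Il1r2, Il1rap and Il18bp have replicate 1 on the other side from replicates 2 and 3.

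The split by replicate number was itself large for most of the family. With the gel as a covariate, the log2 difference of replicate 1 against replicates 2 and 3 was -1.42 ± 0.20 for Il1b (adjusted p = 0.000259), -1.54 ± 0.52 for Il1r2 (0.0485), -1.11 ± 0.17 for Il18 (0.000131) and -0.70 ± 0.14 for Il18bp (0.00116), all lower in replicate 1. It was 1.31 ± 0.17 for Il1r1 (adjusted p = 3.35e-05) and 0.54 ± 0.10 for Il1rn (0.000374), both higher in replicate 1. These 6 genes did not overlap between replicate 1 and the other 6 libraries. Such a split was common: 65.4% of tested genes were called, and 27.7% lay wholly higher and 26.5% wholly lower in replicate 1. Il1a (0.05 ± 0.33, adjusted p = 0.905) and Il1rap (0.27 ± 0.12, adjusted p = 0.0748) were not called. The Il1r2 call was lost without low replicate 2, any middle replicate or any high replicate (adjusted p of 0.0515 to 0.138). Il1a was called lower without low replicate 1 (-0.42, adjusted p = 0.0369), and Il1rap was called higher without high replicate 1 (adjusted p = 0.0140) or high replicate 3 (0.00827).

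The response to stiffness also differed between replicate 1 and the others. In replicates 2 and 3 alone, 4 genes rose in high against low gels: Il1a by 2.14 ± 0.13 (adjusted p = 7.28e-07), Il1b by 1.35 ± 0.10 (1.89e-06), Il1r2 by 0.93 ± 0.07 (2.30e-06) and Il1rn by 0.41 ± 0.08 (0.00193). Il18bp fell by 0.71 on the log2 scale (SE 0.08, adjusted p = 5.62e-05) and Il18 fell by 0.43 (SE 0.15, adjusted p = 0.0462), the last of which was lost with a block of the 2 numbers (0.0542). These 6 of 8 calls stand beside 26.5% of tested genes called in the same 6 libraries. Middle against low gave Il1a, Il1b and Il1rn higher and Il18bp lower (6.5% of genes called), and high against middle gave Il1a, Il1b and Il1r2 higher (6.93%). Il1r2 thus differed by 0.85 ± 0.07 between high and middle gels (adjusted p = 7.90e-05) and by 0.08 ± 0.07 between middle and low gels (0.620). Il18bp differed by 0.02 ± 0.08 between high and middle gels (adjusted p = 0.940) and by -0.73 ± 0.08 between middle and low gels (2.90e-04).

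The difference between the replicate sets was tested as an interaction, chosen after these data were seen, in which replicate 1 is 1 library per gel and is taken to vary like the others. High minus low in replicate 1, less high minus low in replicates 2 and 3, was -2.61 ± 0.15 for Il1r2 (adjusted p = 5.96e-06), -1.62 ± 0.22 for Il1a (0.00124), -1.06 ± 0.17 for Il1b (0.00321) and -0.68 ± 0.19 for Il1rap (0.0451). It was 0.85 ± 0.16 for Il18bp (adjusted p = 0.00611). These were 5 of 8 genes, against 8.36% of all tested genes. For middle against low the same test called 3 of 8, Il1a, Il1b and Il1r2, against 2.6% of all tested genes. The neutrophil marker sums given above differ between the same sets of libraries, and their part in this difference was not tested.

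Other genes of the pathway were read in the blocked fit for high against low, where 15.5% of all tested genes were called. Of 13 further IL-1 family ligands and receptors in the files 7 were tested, and 3 rose and 0 fell, with a median of 0.63 over the 7. Il1f9, which encodes IL-36γ, was abundant at 942, 847 and 878 CPM in high gels against 633, 589 and 535 CPM in low gels, and rose by 0.60 ± 0.09 (adjusted p = 0.00200). Its high libraries all lay above its low ones, as did those of 5.9% of all tested genes. Its receptor gene Il1rl2 rose by 0.66 ± 0.15 (adjusted p = 0.0139) and Il1f6, which encodes IL-36α and was near 1 CPM, by 2.11 ± 0.52 (0.0195). The IL-18 receptor chain genes Il18r1 (0.88 ± 0.29, adjusted p = 0.0747) and Il18rap (0.63 ± 0.19, adjusted p = 0.0644) did not pass. The count of 3 was 1 without low replicate 2, low replicate 3, high replicate 2 or high replicate 3, 6 without low replicate 1 and 5 without high replicate 1. The whole-table counts of these fits moved too, with 799 genes called without low replicate 3 and the others as given above. Il33 had at most 1 count in any library.

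Of 17 receptor signalling genes, 1 rose: Irak3, which encodes IRAK-M, a brake on IL-1 and Toll-like receptor signalling. It was at 467, 1123 and 1456 CPM in high gels against 289, 460 and 525 CPM in low gels. The difference was 1.16 ± 0.14 (adjusted p = 6.47e-04), and middle against low was 0.81 ± 0.14 (adjusted p = 0.0181). The other 16, such as Myd88, Irak4 and Traf6, were not called, and the median of the 17 was 0.04. The count was 4 without low replicate 1 and 2 without high replicate 1.

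Of 14 genes for processing and release, 1 rose and 3 fell, with a median of 0.02. Nlrp3, the sensor of an inflammasome that activates caspase-1, was at 344, 743 and 730 CPM in high gels against 288, 246 and 236 CPM in low gels, a difference of 1.16 ± 0.28 (adjusted p = 0.0414). The 3 that fell encode neutrophil granule proteases made mainly in immature cells: Elane (-1.77 ± 0.30, adjusted p = 0.00665), Ctsg (-1.16 ± 0.32, adjusted p = 0.0423) and Prtn3 (-1.08 ± 0.29, adjusted p = 0.0388). They were low, with Elane at 1.14, 9.78 and 10.4 CPM in high gels against 3.47, 34.6 and 33.3 CPM in low gels. The 12 neutrophil markers summed to 3720, 13736 and 13779 CPM in high gels against 3195, 23354 and 20441 CPM in low gels, and their part in these values was not tested. The genes of caspase-1 (Casp1, -0.11 ± 0.09, adjusted p = 0.416) and of the pore-forming gasdermin D (Gsdmd, -0.01 ± 0.10, adjusted p = 0.945) were not called. The Nlrp3 call was lost without low replicate 2, low replicate 3, any middle replicate, high replicate 2 or high replicate 3, and 0 of the 3 proteases were called without high replicate 2 or high replicate 3, 1 without low replicate 2, low replicate 3 or middle replicate 2, and 2 without high replicate 1.

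Genes known to be induced by IL-1 made up the list with the most calls. Of 14 in the files 13 were tested, and 8 rose and 0 fell in high against low gels, with a median of 0.96. The neutrophil chemokine genes Cxcl1 (2.21 ± 0.12, adjusted p = 9.80e-06) and Cxcl2 (1.14 ± 0.14, adjusted p = 5.54e-04), the acute-phase gene Saa3 (1.82 ± 0.18, adjusted p = 4.36e-04) and Lcn2, which encodes an iron-withholding protein (1.32 ± 0.16, adjusted p = 6.25e-04), were among them. Cxcl1 was at 66.9, 21.2 and 17.4 CPM in low gels, at 150, 55.8 and 62.7 CPM in middle gels and at 276, 91.4 and 99.8 CPM in high gels, in the order low, middle, high inside each number. The other 4 that rose were Csf3, Ptgs2, Nfkbiz and Zc3h12a. For middle against low, where 1.84% of all tested genes were called, 3 of 13 rose: Cxcl1, Saa3 and Lcn2. The count of 8 was 5 without low replicate 2 or high replicate 2 and 12 without low replicate 1. Over the whole table these fits called 1024, 602 and 2456 genes. These genes also answer other stimuli, and the list was chosen with earlier results of these data known.

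Without the block edgeR called 0 genes of each of the 4 lists for high against low, with 1, 1, 1 and 7 at an unadjusted p under 0.05 for the further family, signalling, processing and inducible lists. Of all tested genes that fit called 11, and 934 were under that unadjusted value. DESeq2 without the block called 1, 0, 1 and 6 of them, where it called 333 of the 12094 tested genes. In replicates 2 and 3 alone the counts for high against low were 6 higher of 7, 5 higher of 17, 1 higher and 4 lower of 14, and 12 higher of 13. In those 6 libraries 26.5% of all tested genes were called.

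**Figure D5:**
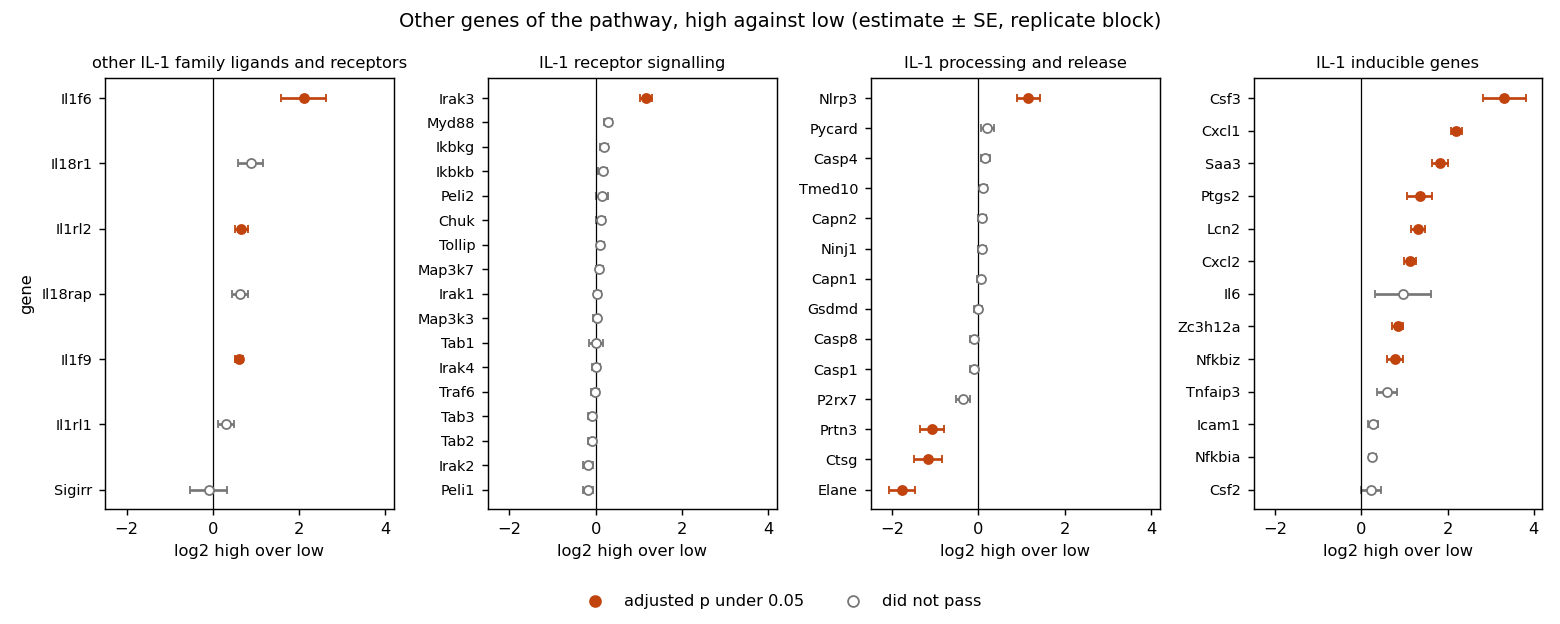
Log2 difference of high against low in the edgeR fit with the replicate block, with standard errors, for the tested genes of the 4 pathway lists, filled where the adjusted p was under 0.05. Filled points lie right of 0 in the inducible list and in the further family list, and only Irak3 is filled among the signalling genes.

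The genes whose pattern was most like a member were found by Pearson correlation of log2 CPM over the 9 libraries after the mean of each replicate number was subtracted, among 9170 genes that averaged 5 CPM or more. For Il1b they were Nfil3 (0.994), Dok3 (0.994), Wbp1l (0.992), Ppp2r5c (0.989) and Gk (0.988). For Il1rn they were Blzf1, Trib1, Cdkn1a, Hlx and Etv6, at 0.994 to 0.984. For Il1r2 they were Rps6ka5, Nnat, Pdpk1, Gsdmd and Malt1, at 0.989 to 0.975. The likeness rests on that subtraction for many of them: without it, the correlation was 0.25 for Wbp1l and 0.47 for Nfil3 with Il1b, -0.73 for Etv6, -0.19 for Hlx and -0.17 for Trib1 with Il1rn, and 0.30 for Pdpk1 with Il1r2. The 9 points share libraries and depth, so these values describe the libraries only.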

How the data were processed

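Poly(A) RNA-seq of 9 libraries was used, 3 for each gel. Each deposited file holds the authors' raw counts per gene, FPKM computed by the authors from them, and the authors' exonic gene size in bases, a column of another unit. The submitters' processing notes name GRCm39 as the genome build and list HTSeq 0.6.1, HISAT2 2.0.1, cutadapt 1.9.1 and, without a version, DESeq2; settings, including strand, are not stated there. The deposited FPKM matched a recomputation from counts and sizes to within 0.005 and served only as that check.

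Counts were fitted with edgeR 4.0.16 in R 4.3.3 (filterByExpr, TMM, robust quasi-likelihood, two-sided, Benjamini-Hochberg over 12094 genes, threshold 0.05), and the SE is the log2 difference divided by the square root of F. Alternatives were a replicate block, RLE size factors, no filter, DESeq2 1.42.0 and leaving out libraries; where 1 library of a gel is left, it is assumed to vary like the others. Same-numbered libraries correlated at 0.568 to 0.826 after removal of gel means, but replicates 2 and 3 of different gels also correlated at 0.532 to 0.665 and replicate 1 with either at -0.746 to -0.628. The first 2 ranges overlap, so these values cannot tell whether a number pairs libraries beyond the separation of replicate 1. Libraries of a gel differed by more than counting noise. The chi-square per degree of freedom was 5.21 to 11.8 between replicates 2 and 3, and 144 to 209 between replicate 1 and either. The small p-values of the fit to replicates 2 and 3 alone rest on the closeness of those 2 numbers. Ratios added 0.5 to each count. The fit with the replicate block recovered known changes in simulated counts. There a changed gene had the same change in every high library, and all genes had the same scatter. The simulation therefore does not cover responses that differ between replicate numbers, as seen here. Figures were drawn with matplotlib 3.10.9.

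Members and lists were chosen with earlier results of these data known. All 8 members are named; of each pathway list, up to 4 genes with the smallest adjusted p in the blocked fit, other genes being named after their values were seen; and the 5 genes most like Il1b, Il1rn and Il1r2. Promoter windows are RefSeq's, matched by symbol for 8 of 8 members, on a build other than that of the files. Protein sequences are not used here.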

Additional observations from a re-analysis of the deposited data

Results flagged for a closer look

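The effect of stiffness differed between replicate 1 and replicates 2 and 3 for 5 of the 8 genes, in an edgeR interaction test that was chosen after the data were seen. For high against low, the log2 difference in replicate 1 minus that in replicates 2 and 3 was -2.61 for Il1r2, -1.62 for Il1a, -1.06 for Il1b, -0.68 for Il1rap and 0.85 for Il18bp. For middle against low it was -1.29 for Il1r2 (adjusted p = 8.99e-04), -1.04 for Il1a (0.0338) and -0.82 for Il1b (0.0301), 3 of 8 genes beside 2.6% of all tested genes. For high against low, the direction in replicate 1 was opposite to that in replicates 2 and 3 for 3 of these 5 genes: Il1r2 (-1.68 against 0.92 and 0.95), Il1rap (-0.39 against 0.07 and 0.52) and Il18bp (0.14 against -0.75 and -0.67). Replicate 1 is a single library in each gel, and the marker sums that differ between the same sets of libraries were not tested as a part of this.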

How the results depend on the processing

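Called genes over the whole table moved with the replicate block, the tool and the libraries left out. Against 0 genes for middle against low, 11 for high against low, 0 for high against middle and 0 among the 3 gels, the replicate block gave 222, 1869, 2 and 1089, DESeq2 gave 48, 333, 2 and 197, DESeq2 with the block gave 462, 1901, 108 and 1436, and the block with RLE size factors, added after the data were seen, gave 233, 1905, 1 and 1090. RLE size factors without the block gave 11 and no filter gave 8 for high against low. Leaving out libraries, with or without the block, gave 0 to 830, 0 to 3201, 0 to 899 and 0 to 2542 genes. Without replicate 1 and without the block there were 786, 3201, 838 and 2490, and the cause was not tested.

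Of the ratios of high against low, Il1a to Il1rn (1.33) and Il1b to Il1rn (0.72) passed when gels were permuted inside replicate numbers. Leaving out libraries gave 0.96 to 1.74 for Il1a to Il1rn, 0.17 to 1.49 for Il1b to Il1rn, -1.11 to 1.04 for Il1r2 to Il1r1 and -0.19 to 0.38 for Il18 to Il18bp.

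Among single genes, leaving out libraries turned the sign of differences that had not passed. The ranges for middle against low were -0.026 to 0.45 for Il1rn, -0.12 to 1.11 for Il1r1, -0.72 to 0.26 for Il1r2 and -0.15 to 0.21 for Il1rap. For high against low they were -0.19 to 1.07 for Il1r1, -0.28 to 1.05 for Il1r2 and -0.18 to 0.29 for Il1rap. For high against middle they were -0.037 to 0.26 for Il1rn, -0.53 to 0.44 for Il1r1, -0.11 to 0.23 for Il1rap, -0.38 to 0.19 for Il18 and -0.049 to 0.36 for Il18bp. For replicate 1 against the others Il1a ranged from -0.42 to 0.40. The Il1r2 difference between replicate 1 and the others also missed the threshold with no filter on low counts. Il1a, Il1b and Il18bp had 1 direction for high against low and for middle against low under each setting run. Il18 was below 0 over all leave-out fits, from -0.756 to -0.105 for high against low and from -0.625 to -0.0058 for middle against low.

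No setting was left out. At 42 to 116 counts a library, Il1r1 had the fewest counts of the 8 genes summed over the 9 libraries, while the SE of high against low with the block was 0.20 for Il1r1 and 0.55 for Il1r2.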
